A study of Homo sapiens with 12 samples.

Results

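The 9 genes described here are transcription factors and a structural protein that mark intestinal epithelial cells: *CDX1*, *CDX2*, *HNF4A*, *GATA6*, *KLF4*, *KLF5*, *ELF3*, *SOX9* and *VIL1*. They were taken as a named list from 20033 protein-coding genes, and a peak of N4-acetylcytidine (ac4C) was assigned to one of them when its midpoint lay inside the gene's GRCh38 span on the gene's strand. By this rule 109 of 126599 peaks belonged to the list. The peaks came from acetylated RNA immunoprecipitation sequencing (acRIP-seq), in which fragmented total RNA is pulled down with an antibody against ac4C. The libraries were made from SW620 cells, an established human colorectal cancer cell line, carrying either a control short hairpin RNA (shControl, genotype WT in the labels) or a hairpin against NAT10 (shNAT10, genotype NAT10 knockdown). Each group had 3 immunoprecipitation libraries, and each library had its own peak list. The labels number the libraries RIP 1 to 3 without saying that they came from separate cultures, so p-values measure only the spread between these libraries, which may be technical. Which hairpin was used, and whether the cells were a clone or a pool, is not given in the labels, and a peak list does not measure how far NAT10 itself was depleted.

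The identity of an intestinal epithelial cell is held by a small set of transcription factors that bind many of the same enhancers. CDX1 and CDX2 are homeodomain factors that specify the intestine, HNF4A and GATA6 act with them on genes for absorption and digestion, and KLF4, KLF5, ELF3 and SOX9 set the balance between dividing crypt cells and differentiated cells. Villin, the product of *VIL1*, bundles actin in the microvilli of the brush border. NAT10 is the acetyltransferase that writes ac4C, a modified cytidine that has been tied to mRNA stability and translation. The comparison asked whether peaks in these mRNAs differed in number, position or score rank between control and NAT10-knockdown cells.

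The control lists held 18241, 22619 and 20063 peaks and the knockdown lists 28752, 17877 and 19047. Knockdown 1, with the longest list, also had the largest share of peaks at a score of exactly 3100, a value at which scores pile up (7.61% to 13.7% over the libraries). Scores were therefore read only as ranks: the percentile of a peak is its position among all peaks of its own library, with tied peaks at their mean rank, so a peak at 3100 sits at 92.7% to 96.0% in every library and shows only how common that score was there. The lists hold no read counts, so depth is unknown. For a gene without a peak, low expression, absent modification and thin coverage cannot be told apart, and in a culture fewer cells expressing a gene cannot be told apart from less RNA per cell. Among markers of colorectal epithelium, *CDX2*, *VIL1*, *KRT8* and *EPCAM* had a peak in each of the 6 libraries, *CDH17* and *LGALS4* had one in some of them, and *KRT20*, *KRT18* and *GPA33* had none. Of 15 markers of fibroblasts, blood cells and endothelium, 4 had a peak somewhere (*COL1A1*, *LYZ*, *VWF* and *CDH5*) and none of the 15 had one throughout.

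Peaks were found on 8 of the 9 identity genes, and 5 of them (*CDX2*, *HNF4A*, *KLF5*, *SOX9* and *VIL1*) had a peak in every library, against 61.3% and 29.8% of all protein-coding genes. A peak in every library of 1 group and in no library of the other was seen for 0 of the 8 genes with a peak, against 0.7% of all 12282 such genes. The list held 13, 17 and 21 peaks in the control libraries and 24, 17 and 17 in the knockdown libraries. Set against the size of each list this was 7.13, 7.52 and 10.5 per 10000 peaks in the controls and 8.35, 9.51 and 8.93 in knockdown cells, so the groups overlapped. Of the 109 peaks, 35 (32.1%) were at 3100 or above, against 11.8% of all peaks. These were the same few regions of *CDX2*, *KLF5*, *SOX9* and *VIL1*, counted again in each library, and no other gene of the list had such a peak.

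**Figure D1:**
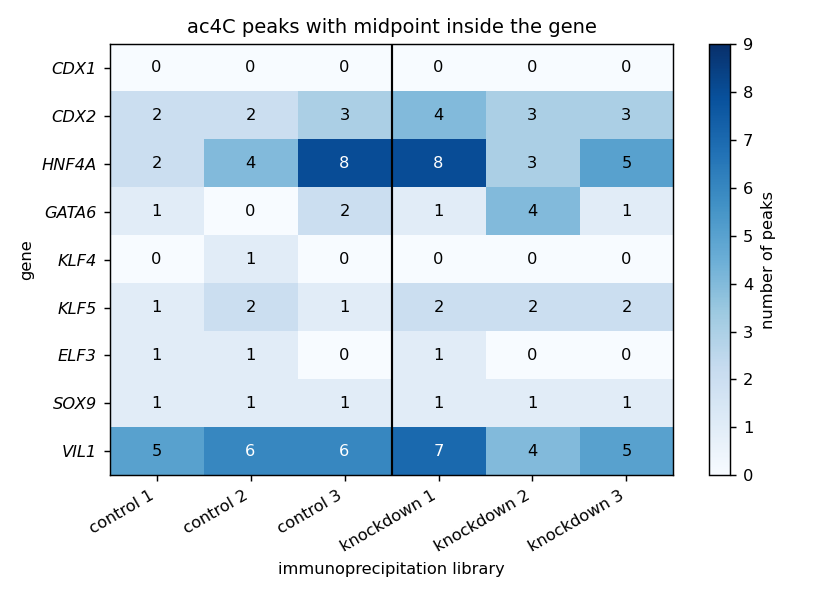
Number of ac4C peaks whose midpoint lay inside each identity gene (rows) in each immunoprecipitation library (columns), printed in the cell and shown by colour, with control libraries left of the line and knockdown libraries right of it. *VIL1* and *HNF4A* held the most peaks, *SOX9* held 1 in every library, *CDX1* held none, and no gene separated the groups.

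The sequence is shown around 3 transcription starts, those of *CDX2*, *ELF3* and *GATA6*, where peaks crossed the start of the gene span and lay partly upstream of the gene. Peaks of *VIL1* also crossed its start, by 31 bases in all 6 libraries, but no window was available for it. A second start of *KLF5*, inside its span, was covered in all 6 libraries as well and is not shown. The sequences are the RefSeq promoter windows of GRCh38.p14 in the direction of transcription, 250 bases upstream of the start followed by the first 30 bases of the gene, and capitals mark the bases covered in every library that had a peak there. The first 2 windows were reached in all 6 libraries and the window of *GATA6* only in control 1 and knockdown 1.
*CDX2*, chr13:27969286-27969565, minus strand: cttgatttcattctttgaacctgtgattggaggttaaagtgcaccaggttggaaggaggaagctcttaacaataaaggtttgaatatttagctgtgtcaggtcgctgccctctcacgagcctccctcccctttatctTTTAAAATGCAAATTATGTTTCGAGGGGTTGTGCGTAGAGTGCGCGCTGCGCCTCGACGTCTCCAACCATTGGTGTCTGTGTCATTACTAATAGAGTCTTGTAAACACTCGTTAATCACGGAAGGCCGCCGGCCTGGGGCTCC
*ELF3*, chr1:202010337-202010616, plus strand: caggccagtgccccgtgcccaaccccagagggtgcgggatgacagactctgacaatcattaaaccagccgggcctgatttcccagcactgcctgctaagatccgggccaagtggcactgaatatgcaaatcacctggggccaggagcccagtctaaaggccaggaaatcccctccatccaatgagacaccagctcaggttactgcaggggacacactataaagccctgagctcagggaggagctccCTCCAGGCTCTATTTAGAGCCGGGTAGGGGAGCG
*GATA6*, chr18:22169339-22169618, plus strand: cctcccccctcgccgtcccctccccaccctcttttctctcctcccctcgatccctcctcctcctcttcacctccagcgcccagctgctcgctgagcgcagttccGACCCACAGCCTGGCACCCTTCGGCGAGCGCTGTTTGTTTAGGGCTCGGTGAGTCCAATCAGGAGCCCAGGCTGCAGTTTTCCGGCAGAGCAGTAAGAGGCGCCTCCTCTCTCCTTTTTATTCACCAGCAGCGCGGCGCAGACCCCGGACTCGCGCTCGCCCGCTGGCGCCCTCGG
The capitals run over 143 bases for *CDX2*, 34 for *ELF3* and 176 for *GATA6*. The windows differ in composition, with a GC content over the bases shown of 48.2% for *CDX2*, 58.6% for *ELF3* and 66.4% for *GATA6*. The median over 34943 whole windows, which run to 50 bases past the start, was 58.7%. A run of 5 consecutive CNN triplets, a spacing of cytidines that has been linked to ac4C, was searched on both strands of the whole windows. It was present in the windows of *CDX2* and *GATA6* and absent from that of *ELF3*, and 7 of the 8 windows available for the list held it on either strand, against 70.9% of all windows. A promoter window is mostly not transcribed, so this is a description of the letters only.

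*CDX2*, the homeodomain factor whose loss turns intestinal epithelium towards other fates, had 2, 2 and 3 peaks in control libraries and 4, 3 and 3 in knockdown libraries (2.33 ± 0.577 against 3.33 ± 0.577, SD, n = 3 each; two-sided exact permutation test, p = 0.3, where 3 against 3 allow no p below 0.1). The groups met at 3 peaks, and without control 3 they did not overlap. The first of its 3 regions lay over the transcription start and was at 3100 in all 6 libraries. All 6 peaks there shared their downstream edge, and upstream they reached 113 bases before the start in 4 libraries, 131 bases in knockdown 2 and 263 bases in knockdown 3.

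The second *CDX2* region, chr13:27964870-27965015, lay at 52.1% of the gene span and had the same first and last base in every library. Its percentile was 55.4%, 74.0% and 77.3% in the controls and 83.6%, 77.2% and 72.7% in knockdown libraries (68.9 ± 11.8 against 77.8 ± 5.48; exact permutation p = 0.5). Control 1 was the lowest value, and the other 5 libraries lay between 72.7% and 83.6%.

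The third *CDX2* region, chr13:27962137-27963369 near the downstream end of the gene, had a peak in control 3 and in all 3 knockdown libraries (Fisher's exact test, p = 0.4). Knockdown 1 carried it as 2 adjoining peaks, at percentiles of 82.2% and 3.17%, which is why it counted 4 peaks over the gene. Because of this region the covered length of *CDX2* was 1109, 1109 and 2334 bases in the controls and 2304, 2360 and 2492 bases in knockdown libraries (exact permutation p = 0.2). Control 3 lay inside the knockdown range and the other controls were shorter, so the groups did not overlap without control 3, nor without knockdown 1. *CDX1*, the paralog of *CDX2* that acts beside it in the crypt, had no peak assigned to it in any library. No strand was set for *CDX1*, so only assignment without strand could give it a peak. With that assignment the groups did not differ in its presence.

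**Figure D2:**
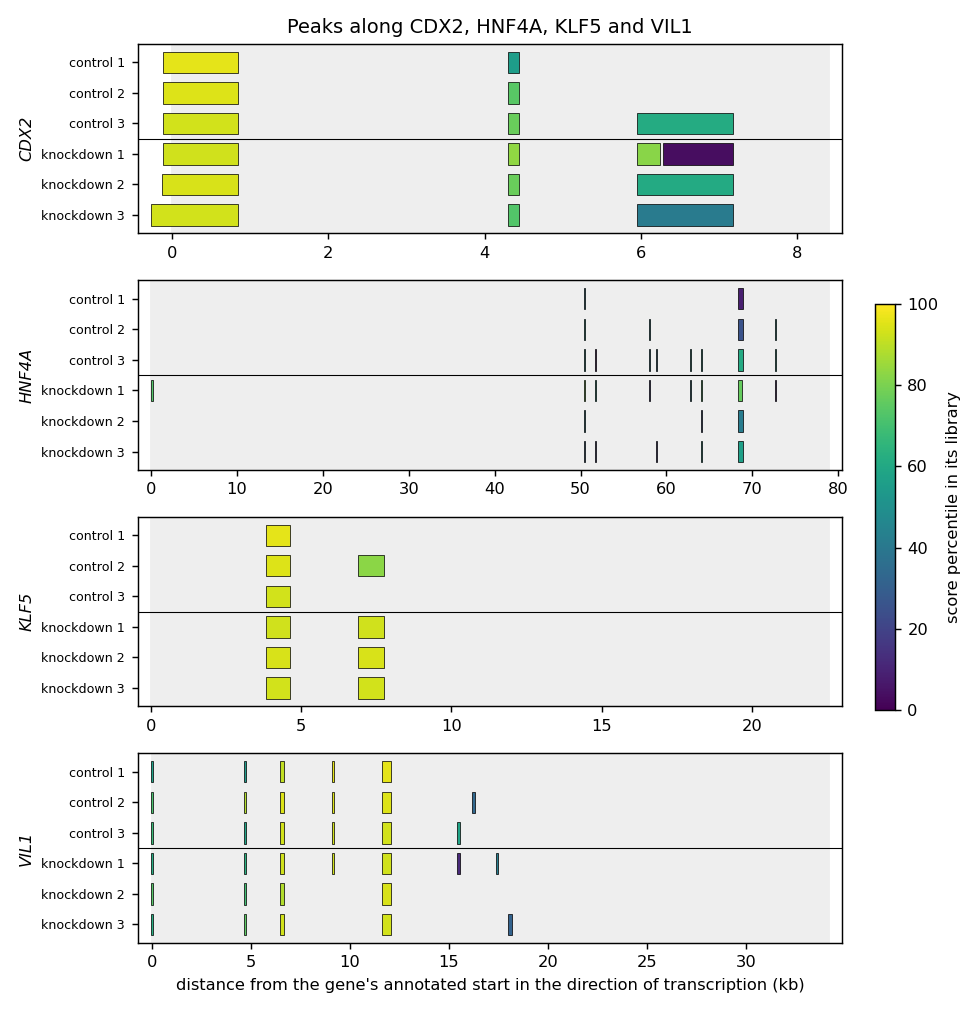
Peaks along *CDX2*, *HNF4A*, *KLF5* and *VIL1*, drawn as boxes at their distance in kilobases from the annotated start in the direction of transcription, with 1 row per library and the gene span in grey. Box colour gives the score percentile within the library. The boxes line up between libraries, and the third *CDX2* region and the second *KLF5* region are present in 1 control and 3 knockdown libraries.

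*HNF4A*, a nuclear receptor that drives enterocyte genes, had the most variable number of peaks. It had 2, 4 and 8 in the controls against 8, 3 and 5 in the knockdown libraries (4.67 ± 3.06 against 5.33 ± 2.52; exact permutation p = 0.8). Control 3 and knockdown 1 stood at 8 each, so the spread within a group exceeded the difference between the groups. Covered length was 797, 1057 and 1552 bases in the controls and 1475, 953 and 1204 bases in knockdown libraries (p = 0.8 by the same exact test).

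The *HNF4A* peaks fell into 9 regions, of which 8 lay in the downstream part of the span, at 63.9% to 92.2% of its length, and 2 were present in every library. At chr20:44406058-44406232 the percentile was 41.8%, 52.2% and 50.4% in the controls and 80.0%, 42.9% and 31.7% in knockdown libraries (48.1 ± 5.58 against 51.5 ± 25.3; exact permutation p = 0.9). Knockdown 1 alone stood above the controls there. At chr20:44424018-44424639 it was 8.42%, 25.5% and 60.8% in the controls and 76.5%, 41.5% and 56.4% in knockdown libraries (31.6 ± 26.7 against 58.1 ± 17.6; exact permutation p = 0.3). The 3 control libraries spanned more than the distance between the means. A further region, chr20:44419721-44419876, had a peak in control 3 and all 3 knockdown libraries (Fisher's exact test, p = 0.4). The gene has alternative transcription starts, and at the upstream one, where the annotated span begins, knockdown 1 alone had a peak (chr20:44355700-44355853, percentile 72.9%). No peak reached the window of the downstream start at position 44401239. Knockdown 1 also had the longest peak list of the 6. With the same number of top-scored peaks from each library the *HNF4A* difference (knockdown minus control) was 0.333 peaks, against 0.667 with all peaks. For the percentile it was 4.49 points at the first region present in every library and 29.6 at the second, against 3.39 and 26.5. Beyond these values the part of list length was not tested.

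*GATA6*, an endodermal zinc-finger factor, had 1, 0 and 2 peaks in the controls and 1, 4 and 1 in knockdown libraries (1.00 ± 1.00 against 2.00 ± 1.73; exact permutation p = 0.7). Its peaks ranked between 2.17% and 58.6%. The region chr18:22170933-22172279 had a peak in control 3 and in all 3 knockdown libraries (Fisher's exact test, p = 0.4), at percentiles of 15.2% in the controls and 58.6%, 36.6% and 15.8% in knockdown libraries. The peak over the transcription start shown above had its midpoint outside the span, so it was not counted for the gene, and it ranked at 0.444% in control 1 and 9.26% in knockdown 1, close to the bottom of both lists.

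Of the Krüppel-like factors, *KLF5*, which keeps crypt cells dividing, carried peaks in every library and *KLF4*, which accompanies cell cycle exit and goblet cell differentiation, in only 1. *KLF5* had 1, 2 and 1 peaks in the controls and 2, 2 and 2 in knockdown libraries (1.33 ± 0.577 against 2.00 ± 0; exact permutation p = 0.4). The region chr13:73058792-73059588 was at 3100 in all 6 libraries with the same edges, and it covers a second annotated start of *KLF5*. The region chr13:73061861-73062734 was listed in control 2 at a percentile of 82.6%, below the tied top scores, and in all 3 knockdown libraries at 3100 (Fisher's exact test, p = 0.4). In the other 2 control libraries it was not listed, so the ranks were not tested, and without control 2 the peak numbers of *KLF5* did not overlap between the groups. The single *KLF4* peak, in control 2, lay at chr9:107489168-107489766, began 3 bases inside the gene and ranked at 11.5%.

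*ELF3*, an epithelium-specific ETS factor, had a peak over its transcription start in all 6 libraries. All 6 peaks ended at the same base, position 202011299 on chromosome 1, but their upstream edges lay 437, 164 and 893 bases before the start in the controls and 4, 979 and 836 bases before it in knockdown libraries. By midpoint only 3 of them counted for the gene (control 1, control 2 and knockdown 1), since the longer ones had their centre upstream of the start. With any overlap counted the gene had 1 peak in each library. The percentile of the region was 52.8%, 63.7% and 85.6% in the controls and 67.6%, 76.9% and 81.4% in knockdown libraries (67.4 ± 16.7 against 75.3 ± 7.03; exact permutation p = 0.6). Control 1 and control 3 bracketed all knockdown values.

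*SOX9*, the HMG-box factor of crypt stem and Paneth cells, had 1 peak in each library, always at 3100. The peaks began at the same base, chr17:72123543, and were the longest of the list. They covered 2878, 2053 and 2857 bases in the controls and 2849, 2878 and 2318 bases in knockdown libraries (2596 ± 470 against 2682 ± 315; exact permutation p = 0.9). Control 1 and knockdown 2 had the same peak to the base, and each group had 1 shorter peak.

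**Figure D3:**
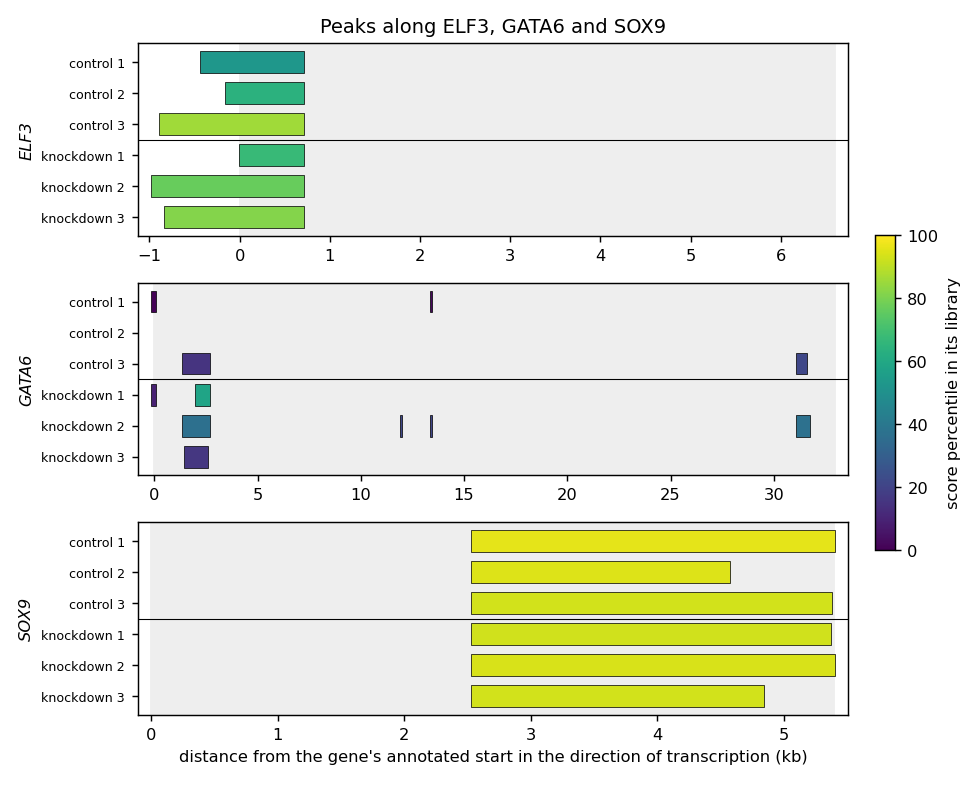
Peaks along *ELF3*, *GATA6* and *SOX9*, drawn as boxes at their distance in kilobases from the annotated start in the direction of transcription, with 1 row per library, the gene span in grey and colour for the score percentile. Every peak that overlaps a span is drawn, those with their midpoint outside it included. *ELF3* peaks share their downstream edge and *SOX9* peaks their upstream edge in all 6 libraries, while the *GATA6* peaks differ from library to library.

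*VIL1*, the structural gene of the list, held 33 of its peaks, with 5, 6 and 6 in the controls and 7, 4 and 5 in knockdown libraries (5.67 ± 0.577 against 5.33 ± 1.53; exact permutation p = 1). Of the genes with a peak, 590 (4.80%) had at least as many over the 6 libraries, without regard to gene length, and the span of *VIL1* is 34173 bases. All 9 of its regions had their midpoint in the first 53.0% of the span. Of these, 4 were present in every library.

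The region chr2:218419092-218419168 over the *VIL1* start ranked at 57.7%, 70.9% and 67.2% in the controls and 61.6%, 73.1% and 62.0% in knockdown libraries (65.3 ± 6.83 against 65.5 ± 6.52; exact permutation p = 1). The groups lay on top of each other. At chr2:218423765-218423853 the percentile was 54.3%, 88.4% and 58.1% in the controls and 63.5%, 69.3% and 74.7% in knockdown libraries (exact permutation p = 0.9), with control 2 the highest. The region chr2:218425615-218425811 was at 3100 in 4 libraries and scored 2680.15 in control 1 and 3040.89 in knockdown 2 (exact permutation p = 0.5 on the percentile). The region chr2:218430725-218431216 was at 3100 in all 6 libraries. The region chr2:218428227-218428337 was at 3100 in all 3 control libraries and in knockdown 1 and was not listed in knockdown 2 or knockdown 3 (Fisher's exact test, p = 0.4). It was the only region of the list that leaned to the control group by 2 libraries, and it was among the top-scored peaks wherever it was listed.

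Over the list the peaks formed 30 regions, of which 11 were present in all 6 libraries, as were 9195 of the 41755 regions of the whole series, and 6 were found in 1 library against 38.7% of all regions. More control than knockdown libraries had a peak in 5 regions, more knockdown libraries in 9, and the numbers were equal in 16. Presence throughout 1 group with absence from the other was seen for 0 of the 30, against 1.16% of all regions. A difference of 2 libraries was seen in 5 regions (*CDX2* region 3, *HNF4A* region 7, *GATA6* region 1, *KLF5* region 2 and *VIL1* region 4), 4 of them with more knockdown libraries, against 9.99% of all regions with such a difference in either direction. The split by direction was not counted over all regions, so a lean of the list cannot be told apart from one of the whole series.

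The groups did not separate in any other readout. Among the 5 genes with a peak in every library, 0 had peak numbers that did not overlap between the groups (2.65% of 5966 genes), 0 had covered lengths that did not overlap (7.12%), and 0 had top-peak percentiles that did not overlap (9.42%). The top peak was at 3100 in every library for *CDX2*, *KLF5*, *SOX9* and *VIL1*, so only *HNF4A* could be compared, with 41.8%, 52.2% and 60.8% in the controls and 80.0%, 42.9% and 56.4% in knockdown libraries (51.6 ± 9.54 against 59.7 ± 18.8; exact permutation p = 0.6). Of the 11 shared regions 0 had percentiles that did not overlap, against 11% of 9195 such regions, and 4 of the 11 were at 3100 throughout. In 7 of the 11 the first and last base were the same in all 6 libraries, as in 68.9% of all shared regions.

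**Figure D4:**
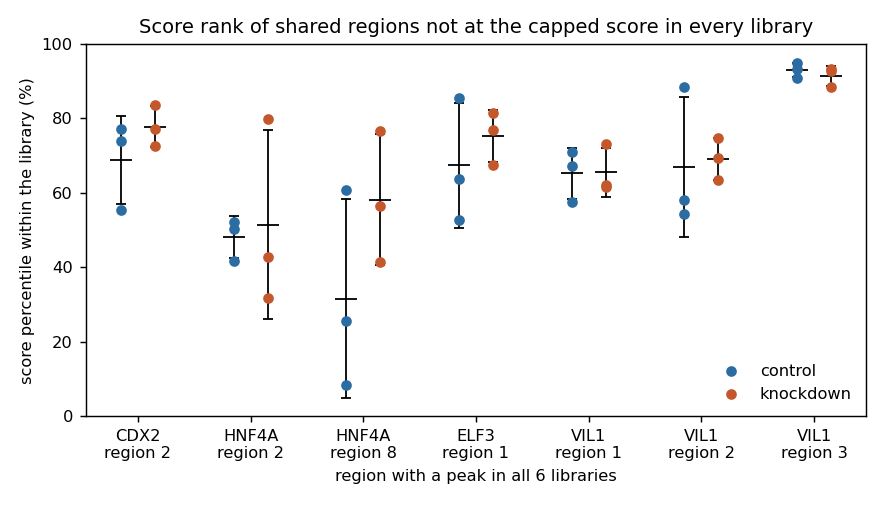
Score percentile within the library (vertical axis, percent) for the 7 shared regions that were not at 3100 in all 6 libraries, with 1 point per library, a horizontal line for the group mean and bars of 1 SD (n = 3). Control and knockdown points overlap in every region, and the widest spreads are those of the *HNF4A* regions.

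The wider intestinal programme was read from 3 further lists. Of 32 other intestinal transcription factors, 25 had a peak, 17 had one in all 6 libraries and 0 had one in all 3 libraries of a group with none in the other (0.7% of all genes with a peak). *RXRA*, the partner of several nuclear receptors, had 7, 8 and 7 peaks in the controls and 8, 7 and 7 in knockdown libraries, and *TCF7L2*, the Wnt effector of the crypt, had 7, 8 and 5 against 8, 8 and 6. Peak numbers did not overlap in 3 of the 17, against 2.65% of all such genes, each with more peaks in knockdown libraries, and these were chosen for mention after their values were seen. They were *OVOL2*, a zinc-finger factor that maintains the epithelial state (1, 1 and 2 against 3, 4 and 4), *PROX1* (1, 2 and 2 against 3, 3 and 3) and *VDR*, the vitamin D receptor (3, 3 and 4 against 6, 5 and 5). Each had an exact permutation p of 0.1, the smallest that 3 against 3 allow, and none could pass a threshold of 0.05. With the same number of top-scored peaks taken from each library all 3 overlapped (exact permutation p = 0.4 for *OVOL2*, 0.3 for *PROX1* and 0.2 for *VDR*), and with the top-scored 50% of peaks the difference in means (knockdown minus control) was 0.667, 0 and -0.333 peaks.

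Of 18 genes for the brush border and epithelial structure, 15 had a peak and 8 had one in all 6 libraries. A peak in all 3 libraries of a group with none in the other was seen for 0 of the 15, against 0.7% of all genes with a peak. *CDHR2*, a protocadherin that links microvilli, had 5, 6 and 8 peaks in the controls and 9, 6 and 7 in knockdown libraries. *ESPN*, an actin bundler like villin, had 7, 8 and 6 against 10, 5 and 4. The groups overlapped in both.

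Of 20 enterocyte, goblet and crypt products, 13 had a peak and 5 had one in all 6 libraries, led by *EPHB2* (6, 7 and 10 peaks in the controls and 7, 8 and 9 in knockdown libraries) and *ZNRF3* (6, 6 and 6 against 6, 5 and 6). Of the 13 with a peak, 2 had one in all 3 control libraries and none in the knockdown libraries, against 0.7% of all genes with a peak for this pattern in either direction. *ALPI*, the intestinal alkaline phosphatase of the brush border, had 1 peak in each control library and none in the knockdown libraries, within chr2:232458860-232460032 and at percentiles between 31.6% and 79.6%. *CEACAM5*, a cell adhesion glycoprotein of colonic epithelium, had 2, 1 and 3 peaks in control and none in knockdown libraries. Its peaks ranked between 7.15% and 45.4%, and none of its positions was shared by all 3 control libraries. Fisher's exact test gave p = 0.1 for each, the smallest it can give here. With the top-scored 50% of peaks neither gene kept this pattern. That cut removed every *CEACAM5* peak, as all ranked below 50%, and left *ALPI* only its peak in control 1. With the same number of top-scored peaks from each library, with the other gene assignments and with any 1 library left out, both genes kept the pattern. Both genes have paralogs of similar sequence, and how reads that match several copies were placed is not given in the sources used here.

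**Figure D5:**
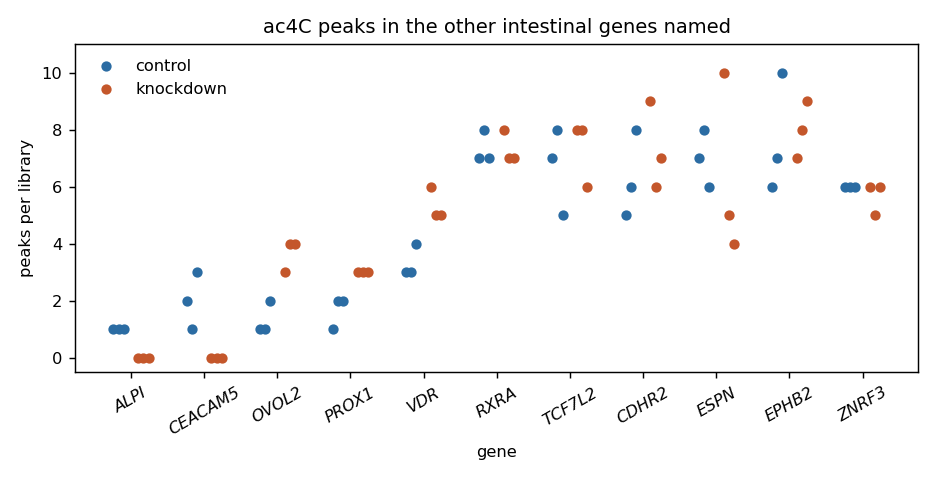
Number of ac4C peaks per library (vertical axis) for the genes named from the 3 further intestinal lists, with 1 point per library in control and knockdown cells. *ALPI* and *CEACAM5* had peaks in control libraries only, *OVOL2*, *PROX1* and *VDR* had more peaks in every knockdown library than in any control library, and the points of the other 6 genes overlap.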

How the data were processed

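The 6 ac4C immunoprecipitation libraries (3 shControl, 3 shNAT10) were analysed, grouped by their labels. Input libraries were not analysed here. The authors deposited 1 peak list per library, limited to mRNA, with positions, strand and a score, without pooling replicates. The deposited score runs from 50 to 3233.06, its scale is not named, and peak names are those of MACS. The genome build GRCh38 is named in the submitters' processing notes, while the aligner, caller version and settings are not given in the sources used here. Deposited positions count from 0 and are printed here counted from 1.

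Peaks were assigned by midpoint and strand to protein-coding spans of the RefSeq GRCh38.p14 gene table. In each library 96.2% to 96.9% of peaks were assigned. Strand came from the RefSeq promoter table or, for *VIL1* and *SOX9*, from the peaks. For *CDX1* no strand was set. Of 96510 peaks inside 1 gene with a known strand, 99.4% lay on it. No exon or coding annotation was used here. Overlapping peaks (at least 1 base, same strand) were merged into regions. Peak number, covered bases and score percentile were compared by two-sided exact permutation tests and presence by Fisher's exact test, and the smallest p of 0.1 leaves no gene able to pass 0.05 before or after adjustment. The shares called were counted over all genes or regions. The members and lists were chosen with earlier results of these data known. Named were all 9 genes and, from each further list, genes present in all libraries of 1 group alone and the 2 with the most peaks. Alternatives took the top-scored 50% of each list or 17877 peaks per library, other gene assignments, other merging, another criterion or rank for ties, the replicate number as a block, or 1 library fewer. One marker is not reported here. The code was tested on simulated data. Python 3.11.15, numpy 2.4.6, pandas 2.3.3, scipy 1.17.1 and matplotlib 3.10.9 were used.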

Additional observations from a re-analysis of the deposited data

How the results depend on the processing

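Of 653 alternative values for 57 results, 605 neither reversed in sign, crossed the threshold or call, nor, as counts of calls, moved. Differences that fell to 0, or were 0 from the start, are counted among these 605. No p fell below 0.1, but the group sizes allow none lower, so the side of the threshold was fixed for every p. With a difference of 2 libraries as the criterion, 5 regions of the list were called against 9.99% of all regions. When each library was left out in turn, the calls ranged from 0 to 1 gene for peak number and for covered bases (*KLF5* without control 2, *CDX2* without control 3 and, for covered bases, without knockdown 1; 5.53% to 7.11% and 12.8% to 17.0% of all genes in those settings), 0 to 3 for regions by presence (2.66% to 3.45% of all regions where any was called), 0 to 4 for the top peak (4 without control 3 or without knockdown 2, genes at 3100 throughout, against 33.3% and 27.4% of all genes tested) and 0 to 6 for the percentile of shared regions (6 without control 3, against 34.7% of all). Of the 6 shared regions without control 3, 4 were at 3100 throughout, and their percentiles show only how common that score was. The others were *HNF4A* region 8 and *ELF3* region 1, with differences (knockdown minus control) of 41.2 and 17.0 points. Leaving out control 1 or control 2 gave 1 such region each, *VIL1* region 3 and *VIL1* region 2, against 19.8% and 19.1% of all. Without knockdown 2 the percentiles of 4 shared regions did not overlap, against 27.0% of all, and these 4 were at 3100 throughout. The regions called by presence with 1 library left out were *CDX2* region 3, *HNF4A* region 7 and *GATA6* region 1 without control 3, *KLF5* region 2 without control 2 and *VIL1* region 4 without knockdown 1. Differences (knockdown minus control) changed sign between -0.667 and 2.33 peaks, -93.8 and 284 covered bases, -1.96 and 16.6 points of the top percentile and -10.8 and 13.3 points of the first shared region for *HNF4A*, between -1.17 and 0.333 peaks and -125 and 92.8 bases for *VIL1*, between -186 and 268 bases for *SOX9*, and between -3.52 and 3.10 and -4.13 and 12.9 points for the first and second *VIL1* regions. Those regions stood at -4.15 and -2.72 points with equal numbers of peaks. Counting any overlap turned the *ELF3* covered bases from -437 to 108. With the 50% of peaks of highest score the difference was 0.667 peaks for *OVOL2*, 0 for *PROX1* and -0.333 for *VDR*, which also overlapped with equal numbers of peaks, and presence differed by -33.3 points for *ALPI* and 0 for *CEACAM5*. No *CEACAM5* peak ranked in the top 50% of its library, so the value of 0 was fixed by the cut, and *ALPI* kept only its peak in control 1. With equal numbers of peaks both genes stayed at -100 points. The cause of the other changes was not tested. Samples with the same number did not deviate together (correlations of -0.178, -0.121 and -0.00383 over 12282 genes). A replicate block leaves a difference as it is (1 peak for *CDX2*), and its lowest sign-flip p over 24 results was 0.25, the smallest 3 pairs allow. Unknown depth limits every statement on an absent peak.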

Other observations

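The remaining intestinal products are given by their values, without a test. Among genes of the crypt, the Wnt-pathway genes *EPHB2*, *ZNRF3*, *RNF43* and *AXIN2* had a peak in all 6 libraries, with totals of 47, 35, 8 and 8 peaks. *LGR5*, the stem cell receptor, had 0, 1 and 1 peaks in the controls and 0, 3 and 1 in knockdown libraries, *SMOC2* had 1 peak, in control 2, and *OLFM4* had none. Among products of differentiated cells *FABP1*, a fatty acid binding protein of enterocytes, had 1, 2 and 2 peaks in the controls and 1, 1 and 1 in knockdown libraries. *FABP2*, *SI*, *DPP4*, *MUC2*, *CA2* and *SLC26A3* had no peak in any library, and *ANPEP* (knockdown 1) and *GUCY2C* (control 2) had 1 each. *PHGR1* had 0, 1 and 0 peaks in the controls and 2, 1 and 2 in knockdown libraries, and *TFF3* had 0, 0 and 1 against 1, 1 and 0. *HES1*, the Notch effector that holds cells in the absorptive lineage, had 1 peak in each library, while *ATOH1*, the factor of the secretory lineage, had none. These lists do not give expression, so an absent peak cannot be told apart from an absent transcript.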
